A study of Homo sapiens with 12 samples.

Results

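The transcripts that differed when fetal bovine serum was returned to serum-starved KDM3A-knockout cells are described here across all measured genes. KDM3A encodes a histone demethylase that removes methyl groups from lysine 9 of histone H3. The cells were HCT116, an established human colorectal carcinoma line. Refed KDM3A-knockout (KO) cells spent 24 h in medium without serum and were then given fetal bovine serum, and starved KO cells stayed in medium without serum. Mock KO cells, grown in normal culture, and wild-type (WT) HCT116 cells in the same 3 states are given beside them. The labels state neither the time from serum addition to harvest nor whether the KO cells came from 1 clone. RNA was sequenced from 12 samples, 2 in each of the 6 groups, but each group has 1 deposited column of FPKM (fragments scaled by transcript length and by all mapped fragments of the library). How the pair of samples of a group entered its column is not stated, so no spread between replicates is known, no test was possible, and every ratio below compares 1 value with 1 value. Genes at 1 FPKM or more in refed or starved KO cells were compared, which were 12618 of the 26372 genes in the tables. Each was given the log2 ratio of (FPKM + 1), refed over starved, which understates the difference for genes of low level. The words higher and lower stand for at least 2-fold on this scale unless a value is given.

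Serum carries growth factors and lipids that engage receptor tyrosine kinases and G protein-coupled receptors. In quiescent cells its return switches on the immediate early genes without new protein synthesis. Their products include the AP-1 factors of the FOS and JUN families, the EGR zinc-finger factors and the orphan nuclear receptors of the NR4A family. Serum response factor (SRF) drives many of them from CArG boxes in their promoters, and CREB acts at cAMP response elements (CREs). A following set, which includes the dual-specificity phosphatases that dephosphorylate MAP kinases, limits the signal. Cell cycle genes come later, while genes kept on by FOXO factors in the absence of growth factors are turned down.

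Promoters of 5 genes that were higher and 1 that was lower in refed KO cells are shown, chosen partly for the motifs of SRF, CREB and FOXO factors they hold, so they are examples and not a sample of the higher genes. The sequences are from RefSeq on build GRCh38.p14, whereas the FPKM files were made on hg19. Each runs 5′ to 3′ on the strand of the gene, from 250 bases before its start to 50 bases after. Capitals mark matches to 7 motifs, searched on either strand. The CArG box of SRF was searched by its consensus. The full CRE was TGACGTCA and its core letters, which also lie within the full element, were TGACG. The site of AP-1 was written TGANTCA. The element upstream of many starts known as the TATA box was searched as TATAAA. The sites of TEAD proteins, the partners of YAP, were searched as GGAATG. The sites of FOXO proteins were searched as GTAAACA. A match describes letters in this window and says nothing of binding. NR4A3 lies at chr9:99821635-99821934 on the plus strand, FOSB at chr19:45467746-45468045 on the plus strand and FOS at chr14:75278578-75278877 on the plus strand. EGR1 lies at chr5:138465229-138465528 on the plus strand and DUSP1 at chr5:172771146-172771445 on the minus strand, and these were added after their values were seen, EGR1 for its CArG boxes and DUSP1 for its CRE. C10orf10, listed by RefSeq as DEPP1, lies at chr10:44978760-44979059 on the minus strand and had the lowest ratio of the genes named below.
NR4A3: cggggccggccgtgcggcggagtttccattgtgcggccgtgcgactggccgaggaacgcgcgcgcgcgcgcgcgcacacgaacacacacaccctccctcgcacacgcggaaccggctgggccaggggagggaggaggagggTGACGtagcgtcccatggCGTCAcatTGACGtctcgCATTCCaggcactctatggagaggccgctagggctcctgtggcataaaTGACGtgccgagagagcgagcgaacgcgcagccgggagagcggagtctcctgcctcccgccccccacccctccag
FOSB: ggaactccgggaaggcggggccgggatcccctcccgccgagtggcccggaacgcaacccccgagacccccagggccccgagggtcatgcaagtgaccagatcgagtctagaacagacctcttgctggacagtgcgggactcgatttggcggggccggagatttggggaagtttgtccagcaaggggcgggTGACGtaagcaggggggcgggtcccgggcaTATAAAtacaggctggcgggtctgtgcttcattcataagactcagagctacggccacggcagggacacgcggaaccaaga
FOS: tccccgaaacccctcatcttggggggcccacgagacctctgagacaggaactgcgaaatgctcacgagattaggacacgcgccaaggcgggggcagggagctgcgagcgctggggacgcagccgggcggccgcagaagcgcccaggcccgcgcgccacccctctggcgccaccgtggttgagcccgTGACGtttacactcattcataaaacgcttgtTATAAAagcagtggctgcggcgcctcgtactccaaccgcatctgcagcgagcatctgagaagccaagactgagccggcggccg
EGR1: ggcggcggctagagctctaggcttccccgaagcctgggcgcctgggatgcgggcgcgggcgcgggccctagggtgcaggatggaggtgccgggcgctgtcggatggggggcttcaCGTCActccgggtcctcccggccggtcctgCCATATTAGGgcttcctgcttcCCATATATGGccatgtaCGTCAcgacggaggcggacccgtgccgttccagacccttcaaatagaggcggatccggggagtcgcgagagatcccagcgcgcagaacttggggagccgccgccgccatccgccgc
DUSP1: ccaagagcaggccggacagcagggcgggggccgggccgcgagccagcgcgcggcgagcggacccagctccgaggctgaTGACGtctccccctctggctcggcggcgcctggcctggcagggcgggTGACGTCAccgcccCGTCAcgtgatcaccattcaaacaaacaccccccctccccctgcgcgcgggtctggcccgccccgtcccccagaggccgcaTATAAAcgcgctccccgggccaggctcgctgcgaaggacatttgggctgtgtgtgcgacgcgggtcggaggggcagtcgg
C10orf10: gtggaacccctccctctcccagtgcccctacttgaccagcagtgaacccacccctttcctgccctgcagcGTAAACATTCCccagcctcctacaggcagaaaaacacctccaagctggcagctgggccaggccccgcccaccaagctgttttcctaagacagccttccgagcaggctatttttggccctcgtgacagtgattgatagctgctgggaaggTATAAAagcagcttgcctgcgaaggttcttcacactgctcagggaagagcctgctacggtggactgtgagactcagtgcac
The EGR1 window holds 2 CArG boxes, CCATATTAGG and CCATATATGG, which begin 105 and 83 bases before the gene start. The DUSP1 window holds the full CRE 125 bases before the start. NR4A3 holds the core CRE letters 4 times, and FOS and FOSB hold them once each, 64 and 60 bases before the start, followed by a TATA box. C10orf10 holds a FOXO site 180 bases before its start that overlaps a TEAD match. The windows of NR4A1 and PNRC1 hold none of these motifs.

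KDM3A itself had 3.15 FPKM in mock, 3.01 in starved and 3.59 in refed KO cells, against 41.3, 17.8 and 19.8 FPKM in mock, starved and refed WT cells. All 3 KO values lie below the WT values, also without the mock WT column, and serum made little difference in either genotype, with log2 ratios of 0.20 in KO and 0.15 in WT. Of 8 markers of a colorectal epithelial line, 6 reached 1 FPKM in KO cells. EPCAM stood at 179 FPKM in refed and 189 in starved KO cells, and CDX2 at 7.52 and 9.24 FPKM in refed and starved KO cells. CEACAM5 and VIL1 were near 0, at 0.0210 and 0.0165 FPKM in refed and 0.0216 and 0.0378 in starved KO cells. Of the markers of other cell types, the 6 leukocyte ones summed to 0.139 FPKM in refed and 0.250 in starved KO cells, and the 4 markers of blood and serum to 0.0332 and 0.251 FPKM in refed and starved KO cells. Of 6 fibroblast markers COL1A1 alone reached 1 FPKM, at 50.7 in refed and 26.7 in starved KO cells. Of 8 endothelial markers ESAM alone did, at 4.33 in refed and 4.07 in starved KO cells, and the 8 summed to 5.34 FPKM in refed and 5.09 in starved KO cells. Longer lists held a few more detected genes, all similar in both columns. The endothelial list of 16 also held EGFL7, at 65.1 FPKM in refed and 63.8 in starved KO cells. The leukocyte list of 10 also held CD68, at 17.1 FPKM in refed and 18.6 in starved KO cells, and HLA-DRA, at 6.23 and 6.30 FPKM in refed and starved KO cells.

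The mock WT column stood apart from the others. There all 8 endothelial markers reached 1 FPKM and summed to 184 FPKM, against 4.75 in starved and 4.67 in refed WT cells and 5.92 in mock KO cells. VWF was at 75.9 FPKM and CDH5 at 25.8 FPKM in mock WT cells, and both were under 1 FPKM in the other 5 columns. No refed over starved ratio uses the mock WT column. Its levels are given for comparison only, and the part of these transcripts in them was not tested.

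In all, 266 of the 12618 features (2.11%) were higher and 60 (0.476%) lower in refed than in starved KO cells. The 290 short RNA features (small nucleolar and nuclear RNAs, microRNAs and similar) gave 84 of the higher calls (29% of these features) and 58 of the lower calls (20%). Their ratios ran between -5.68 and 9.38, and 98 of them were listed at 0 in 1 of the columns. Such short features have unstable FPKM, so they were set apart. Among the other 12328 genes, 182 were higher (1.48%) and 2 lower (0.0162%). The ratios of 11842 of these genes, 96.1%, lay between -0.5 and 0.5, and the median of all features was 0.01. The differences ran mostly upward, with 437 genes at 0.5 or more and 49 at -0.5 or less. At 4-fold there were 38 genes, at 8-fold 16 and at 16-fold 6, all of them higher. In WT cells the same rule gave 153 higher (1.26%) and 7 lower (0.0574%) of 12189 genes. With short RNA included the WT counts were 228 higher (1.83%) and 92 lower (0.737%), and 26.2% and 29.7% of the short RNA features there were higher and lower.

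**Figure D1:**
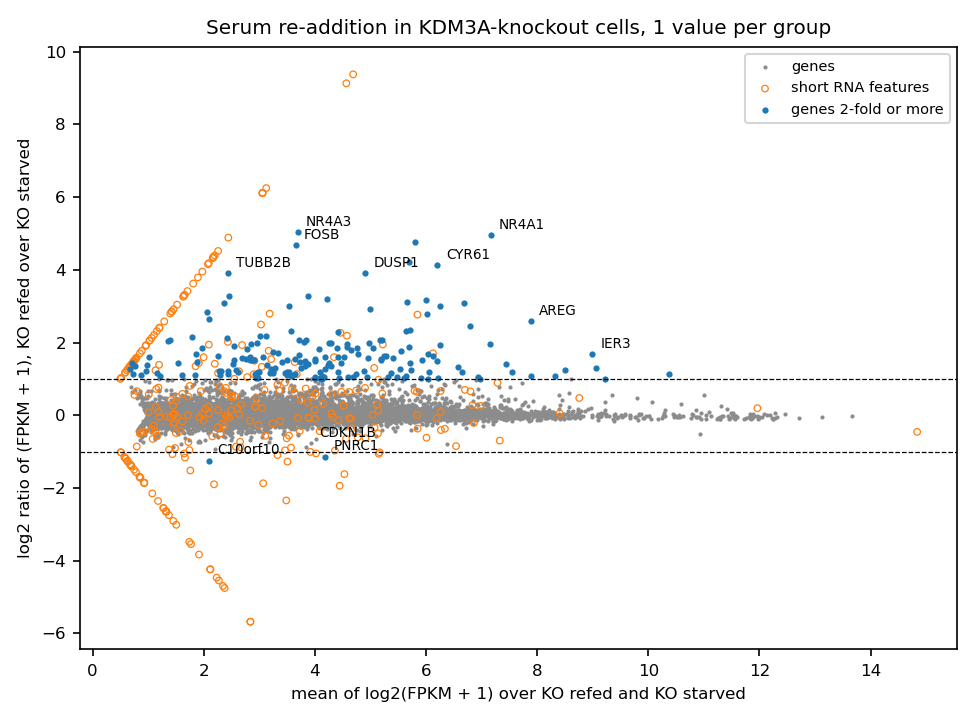
Log2 ratio of (FPKM + 1), refed over starved KO cells (vertical axis), against the mean log2(FPKM + 1) of the same columns (horizontal axis). Each dot is 1 of 12328 genes, blue at 2-fold or more, of which 182 lie at 1 or more and 2 at -1 or less, and open orange circles are the short RNA features, which scatter on both sides.

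The tallest differences were in immediate early transcription factors. The NR4A receptors, orphan nuclear receptors that act without a known hormone, held the first 3 places of all named genes. NR4A3 had 1.42 FPKM in mock, 1.25 in starved and 72.8 in refed KO cells, a log2 ratio of 5.04. NR4A1 had 26.6 FPKM in mock, 24.9 in starved and 796 in refed KO cells, a log2 ratio of 4.95. NR4A2 had 9.71 FPKM in mock, 9.65 in starved and 289 in refed KO cells, a log2 ratio of 4.77. In each of the 3 the mock and starved columns lay close together and the refed column stood far above both. In WT cells the ratios were 4.93 for NR4A3, 5.35 for NR4A1 and 4.13 for NR4A2. The refed levels in WT, at 45.2, 425 and 157 FPKM for NR4A3, NR4A1 and NR4A2, were all below those in refed KO cells.

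Of 11 measured AP-1 and ATF3 genes, 10 were higher and none lower, with a median log2 ratio of 1.98 against 0.01 over all features. FOSB, a FOS family partner of JUN proteins, had 62.7 FPKM in refed and 1.5 in starved KO cells, a log2 ratio of 4.67. ATF3, a stress-responsive repressor, had 223 FPKM in refed and 11.0 in starved KO cells, at 4.23. FOS had 55.7 FPKM in refed and 5.17 in starved KO cells, at 3.20, and FOSL1 had 216 and 25.9 FPKM in refed and starved KO cells, at 3.01. JUN was less far apart, with 38.1 FPKM in refed and 8.84 in starved KO cells, at 1.99. FOSL2 was at 1.98. In WT cells 10 of the 11 were also higher, with a median of 2.51, and the ratios there were 5.12 for FOSB, 5.09 for ATF3, 2.51 for FOS, 3.38 for FOSL1, 3.18 for JUN and 2.87 for FOSL2. FOS was the one of these with the larger ratio in KO cells.

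Of 5 EGR and NAB genes, 4 were higher and none lower, with a median of 1.96. EGR1, the zinc-finger factor whose CArG boxes are printed above, had 13.3 FPKM in mock, 11.1 in starved and 46.2 in refed KO cells, at 1.96. It had 23.5 FPKM in mock, 26.9 in starved and 147 in refed WT cells, at 2.41, so its level in WT was above that in KO in each state. EGR3 had 16.2 FPKM in refed and 0.750 in starved KO cells, at 3.29, and EGR2 had 9.73 and 0.713 FPKM in refed and starved KO cells, at 2.65. The ratios in WT were 4.21 for EGR3 and 3.82 for EGR2. NAB2, a co-repressor that binds EGR proteins, was at 1.25 in KO, while NAB1 was at 0.12.

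**Figure D2:**
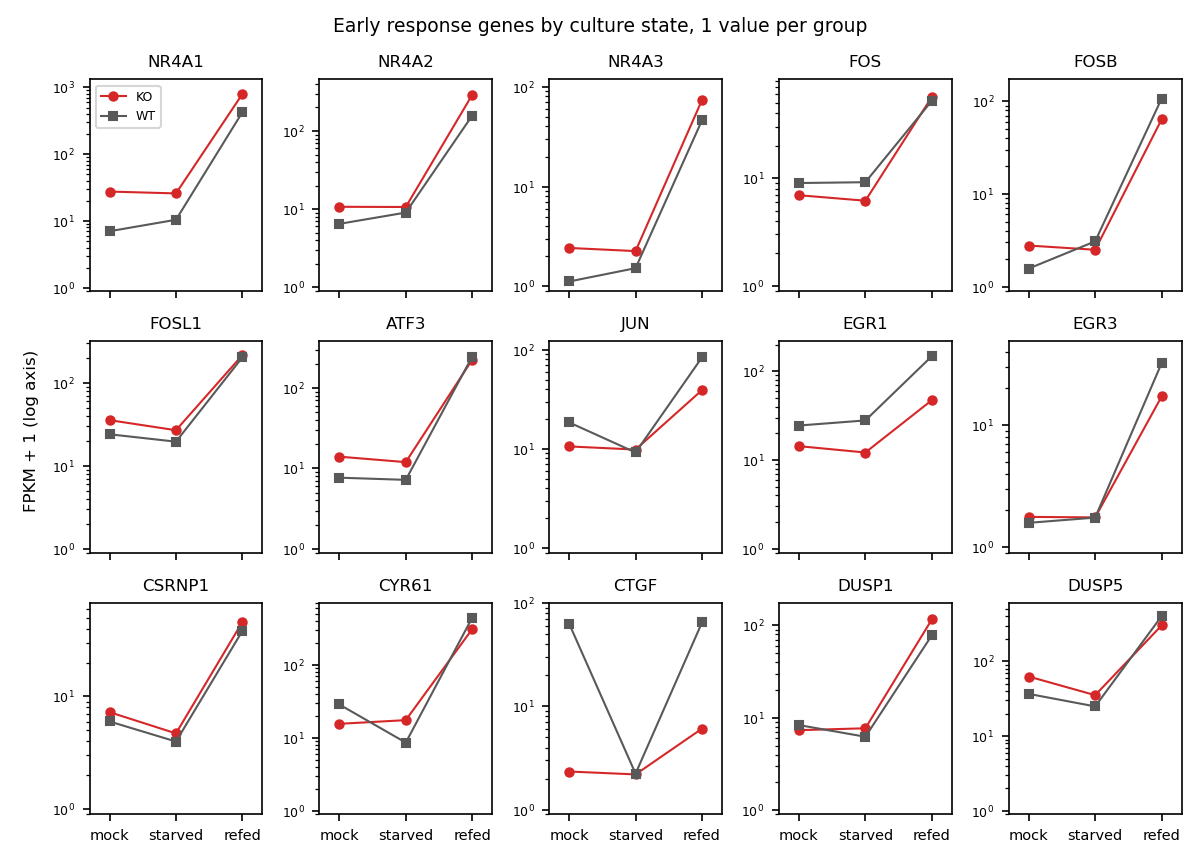
FPKM + 1 on a log axis (vertical) in mock, starved and refed cells (horizontal) for early response genes, KO in red circles and WT in grey squares, 1 value per group. For NR4A1, ATF3 and FOS the refed value stands far above the mock and starved values in both genotypes, and for CTGF the refed KO value lies far below the refed WT value. The mock WT column holds endothelial markers.

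Of 26 KLF and other early transcription factors, 14 were higher and none lower, with a median of 1.06. BHLHE40, a repressor that also acts on the circadian clock, had 146 FPKM in refed and 16.1 in starved KO cells, at 3.11. CSRNP1, a nuclear protein of the cysteine and serine rich family, had 44.8 FPKM in refed and 3.71 in starved KO cells, at 3.28. KLF2 had 117 FPKM in refed and 22.2 in starved KO cells, at 2.35. CEBPD was at 2.01, and SRF itself was at 1.86, with 50.8 FPKM in refed and 13.3 in starved KO cells. ETS2 was at 1.86 in KO cells and 0.67 in WT cells. The median of this list in WT was 0.64.

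Of 36 other immediate early genes, 19 were higher and none lower, with a median of 1.05. CYR61, a secreted matrix protein, had 309 FPKM in refed and 16.6 in starved KO cells, at 4.14. SIK1, a kinase of CREB coactivators, had 10.2 FPKM in refed and 0.567 in starved KO cells, at 2.83. The related kinase gene NUAK2 had 6.34 FPKM in refed and 0.636 in starved KO cells, at 2.17. ZFP36, which promotes decay of AU-rich mRNAs, had 75.1 FPKM in refed and 17.1 in starved KO cells, at 2.08. ARC was at 1.70 and PLK3 at 1.68. Over the 5 early lists, 50 of 81 measured genes were higher, which is 61.7% against 1.48% over all genes, and none was lower. The median of the 81 genes was 1.20 in KO and 1.33 in WT cells. The lists were chosen with earlier results of these data known, so this share is not independent of the data. PTGS2, AMIGO2, KLF9, EGR4 and BATF did not reach 1 FPKM in refed or starved KO cells and are not counted. EGR4 had 0.781 FPKM in refed and 0.178 in starved KO cells, against 2.13 and 0.217 FPKM in refed and starved WT cells.

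The motif counts over these promoters were as follows. Promoter windows were found by symbol for 135 of the 182 higher genes, which made 195 windows, and for 36 of the 50 higher early genes, which made 48 of those. A CArG box lay in 3.59% of the windows of higher genes and in 10.4% of those of higher early genes (5 of 48), against 1.10% of the 14232 windows of measured genes and 1.29% of all 35116 windows in the table. The genes among the 182 with a CArG box in a window were EGR1, EGR2, MYADM, RCAN1, RND3 and SRF. The full CRE lay in 7.69% of the windows of higher genes and 6.25% of those of higher early genes, against 2.92% for measured genes and 1.85% for all windows. Its core letters lay in 45.6% of the windows of higher genes, against 32.2% for measured genes and 24.6% for all windows. A TATA box lay in 18.5% of the windows of higher genes and 29.2% of those of higher early genes, against 5.90% for measured genes and 11.5% for all windows. AP-1 sites lay in 7.69% of the windows of higher genes and 4.17% of those of higher early genes, against 5.18% for measured genes and 7.71% for all windows. TEAD sites lay in 12.3% of the windows of higher genes, against 11.2% for measured genes, and FOXO sites in 3.08%, against 2.56% for measured genes. These shares are descriptions and were not tested.

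The ERK feedback list, which holds genes that limit ERK signalling and others such as CCND1 and MAFF, included both high and near-zero ratios. Of 21 measured members 8 were higher and none lower, and the median was 0.31. Dual-specificity phosphatase genes made up 5 of the 8, beside EPHA2, ERRFI1 and MAFF. Other phosphatase genes of this family were under 2-fold, with DUSP10 at 0.68, DUSP7 at 0.31, DUSP6 at 0.26 and DUSP16 at 0.01. The measured SPRY, SPRED and ETV genes of the list lay between -0.29 (SPRY2) and 0.24 (SPRY4). DUSP1, a nuclear phosphatase of MAP kinases whose CRE is printed above, had 115 FPKM in refed and 6.70 in starved KO cells, at 3.91. DUSP5 had 300.4 FPKM in refed and 34.3 in starved KO cells, at 3.10. DUSP2 had 86.8 FPKM in refed and 10.5 in starved KO cells, at 2.93. DUSP4 followed at 2.32 and DUSP8 at 2.18. In WT cells these were 3.65, 4.01, 3.36, 2.22 and 2.06 for DUSP1, DUSP5, DUSP2, DUSP4 and DUSP8. EPHA2, an ephrin receptor, had 169 FPKM in refed and 23.7 in starved KO cells, at 2.79, and was at 1.74 in WT.

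Of 13 EGF receptor ligands and growth factors, 4 were higher and none lower. AREG, an EGF receptor ligand, had 184 FPKM in mock, 95.4 in starved and 578 in refed KO cells, at 2.58. GDF15 was at 1.68, HBEGF at 1.53 and LIF, an interleukin 6 family cytokine, at 1.19. PDGFA stood apart from these by its mock level, with 70.4 FPKM in mock, 7.18 in starved and 14.6 in refed KO cells. In the plasminogen system 3 of 5 genes were higher. PLAUR, the urokinase receptor, had 258 FPKM in refed and 46.5 in starved KO cells, at 2.45. PLAU, which encodes urokinase, was at 1.44. PLAT and SERPINE2 were at -0.14 and -0.03.

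**Figure D3:**
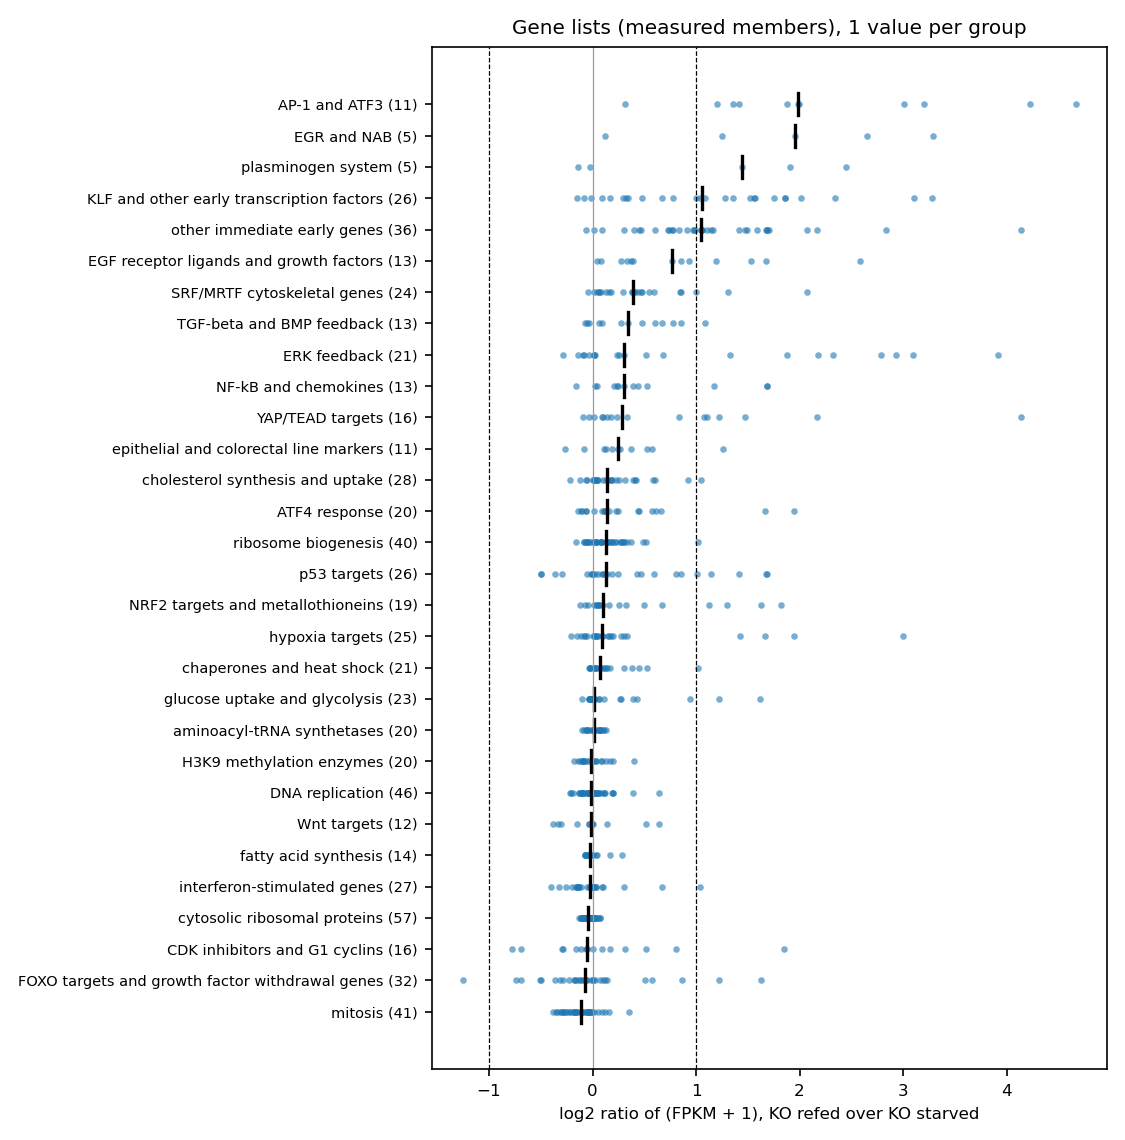
Log2 ratio of (FPKM + 1), refed over starved KO cells (horizontal axis), for each measured member (dots) of the gene lists (rows, with the number measured), black bars marking medians and dashed lines 2-fold. The AP-1 and EGR lists have medians of 1.98 and 1.96, and the DNA replication, mitosis and cytosolic ribosomal protein lists have medians of -0.02, -0.11 and -0.04.

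Targets of SRF with its actin-regulated partner MRTF, which build the contractile cytoskeleton, were less far apart. Of 24 measured, 3 were higher and none lower, at a median of 0.39. TAGLN, an actin-binding protein, had 28.4 FPKM in refed and 5.98 in starved KO cells, at 2.07, and TUFT1 was at 1.3. ACTB had 844 FPKM in refed and 421 in starved KO cells, at 1.002, though reads of the actin genes and their pseudogenes can be shared. It was barely past 2-fold, by less than the median shift of -0.08 when columns were rescaled to a common upper quartile. CNN2, ZYX and FHL2 were at 0.85, 0.84 and 0.59. Of 16 YAP/TEAD targets, 6 were higher and none lower, with a median of 0.28. Among them CYR61, NUAK2, CTGF and F3 also belong to the list of other immediate early genes. CTGF, a matrix protein gene controlled by YAP, had 1.34 FPKM in mock, 1.20 in starved and 5.09 in refed KO cells, at 1.47. In WT cells CTGF had 62.3 FPKM in mock, 1.24 in starved and 64.0 in refed cells, at 4.86. The mock WT value comes from the column with the endothelial markers. The starved columns of the genotypes were alike, and the refed KO value was far below the refed WT value. LATS2, F3 and AMOTL2 were at 1.22, 1.10 and 1.07 in KO cells and at 1.45, 1.67 and 1.99 in WT cells. The TGF-beta and BMP feedback list had 1 of 13 higher, ID3 at 1.08.

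Of 13 NF-kB and chemokine genes, 3 were higher. IER3 had 907 FPKM in refed and 282 in starved KO cells, at 1.68, against 0.57 in WT. The neutrophil chemokine CXCL8 had 5.50 FPKM in refed and 1.03 in starved KO cells, at 1.68, against 89.8 FPKM in refed and 9.37 in starved WT cells, at 3.13. CXCL2 was at 1.17 in KO cells. TNFAIP3 and NFKB2, classical NF-kB targets, were at 0.44 and 0.53.

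Few growth and metabolism genes were higher and none was lower in refed KO cells. Medians of the ribosome biogenesis (0.13), cholesterol (0.14) and ATF4 (0.14) lists lay above 0.10, the 0.75 quantile of genes without short RNA. Of 40 ribosome biogenesis genes 1 was higher, RRP12 at 1.02, and the median was 0.13. The 57 cytosolic ribosomal protein genes lay between -0.13 and 0.07, and the 20 aminoacyl-tRNA synthetase genes had a median of 0.01, which became -0.07 when columns were rescaled to a common upper quartile. MYC had 122 FPKM in mock, 154 in starved and 139 in refed KO cells, at -0.15, against 146 FPKM in refed and 117 in starved WT cells, at 0.32. Of 28 genes of cholesterol synthesis and uptake 24 were above 0 but only 1 was higher. HMGCS1, an early enzyme of the pathway, had 14.0 FPKM in mock, 47.1 in starved and 71.3 in refed KO cells, and INSIG1, which restrains sterol sensing, had 47.4, 64.8 and 124 FPKM in mock, starved and refed KO cells. For both genes refed was above starved and starved above mock. None of 14 fatty acid synthesis genes was higher or lower. Among 20 ATF4 targets DDIT4 and STC2 were higher, at 1.95 and 1.66, and among 21 chaperones DNAJB1 alone was, at 1.02. With the upper quartile of both columns set equal, RRP12, DNAJB1 and also ID3 were under 2-fold.

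Cell cycle genes showed no member higher or lower among 46 DNA replication genes and 41 mitosis genes. The replication genes lay between -0.22 and 0.65, with CCNE1, the cyclin of S phase entry, the highest at 24.7 FPKM in refed and 15.4 in starved KO cells. The mitosis genes lay between -0.38 and 0.35, with 6 above 0 and a median of -0.11, against 0.03 in WT. CCNA2 had 31.2 FPKM in mock, 20.1 in starved and 15.2 in refed KO cells, and TOP2A had 35.2, 23.8 and 18.5 FPKM in mock, starved and refed KO cells. Both were highest in mock cells. CCND1, the G1 cyclin that growth factors raise, had 116 FPKM in refed and 80.7 in starved KO cells, at 0.52. CDKN1B, the CDK inhibitor p27, had 21.4 FPKM in mock, 18.9 in starved and 10.6 in refed KO cells, at -0.78, and was also at -0.78 in WT. CDKN1A was at 0.80.

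Genes of growth factor withdrawal went both ways. Of 32 measured FOXO and withdrawal genes, 2 were higher and 1 lower. C10orf10, a FOXO target, had 3.39 FPKM in mock, 5.57 in starved and 1.76 in refed KO cells, at -1.25, and was at -0.92 in WT. CCNG2, a cyclin linked to cell cycle exit, had 4.58 FPKM in refed and 8.02 in starved KO cells, at -0.69, and PIK3IP1, an inhibitor of PI3 kinase, had 1.88 and 3.81 FPKM in refed and starved KO cells, at -0.74. The higher members were CITED2, a transcriptional co-regulator, at 1.63 and YPEL5 at 1.22. Of the 12 lowest named genes, PNRC1, a nuclear receptor coactivator, was the other past 2-fold, with 21.7 FPKM in mock, 26.1 in starved and 11.3 in refed KO cells, at -1.14. It was at -1.08 in WT and was the only gene lower in both genotypes. PRR15L was at -0.92, ING4, a member of the inhibitor of growth family of chromatin readers, at -0.87, and the transcription factor gene SOX4 at -0.80. FRAT2, which binds GSK3, was at -0.75, LINC00847 at -0.68, BBS10 at -0.61 and MFI2-AS1 at -0.61. PLSCR3 was at -0.66 while its read-through gene TMEM256-PLSCR3, named after its value was seen, was at 1.6, and how reads were divided between them was not tested.

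Among 26 p53 targets 5 were higher. BTG2, an antiproliferative gene that serum also induces, was at 1.42, PLK2 at 1.15 and PMAIP1 at 1.01, and the others were PLK3 and GDF15. All of these but PMAIP1 also belong to the list of other immediate early genes and were counted there. PMAIP1 passed 2-fold by less than the median shift of -0.08 with the upper quartile of both columns set equal. The median of the 26 p53 targets was 0.13 in KO cells, with 19 above 0 and 7 below, and BBC3 was the lowest at -0.50. Of 25 hypoxia targets 4 were higher in KO cells and 1 in WT cells, with medians of 0.09 and -0.10, and DDIT4 and STC2 belong to this list too. ANKRD37 had 36.3 FPKM in mock, 3.12 in starved and 31.8 in refed KO cells, at 3.0, and was at 2.14 in WT. ANGPTL4, a secreted lipase inhibitor, had 87.1 FPKM in mock, 12.6 in starved and 35.5 in refed KO cells, at 1.42. NDRG1 had 488, 119 and 151 FPKM in mock, starved and refed KO cells, at 0.34. These 3 genes had their highest level in mock cells. Of 23 glucose uptake and glycolysis genes, 2 were higher, SLC2A3 at 1.62 and PFKFB2 at 1.22, with none higher in WT. The list median was 0.02 in KO and -0.21 in WT cells, and the KO value became -0.07 with the upper quartile set equal.

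Of 19 NRF2 and metallothionein genes, 4 were higher in KO cells and none in WT cells. All 4 are genes of zinc handling. SLC30A1, a zinc exporter, had 8.94 FPKM in mock, 7.93 in starved and 30.5 in refed KO cells, at 1.82, against 8.00 FPKM in refed and 5.13 in starved WT cells, at 0.55. MT1E had 841 FPKM in refed and 341 in starved KO cells, at 1.3, and was at 0.04 in WT. MT2A had 1956 FPKM in refed and 896 in starved KO cells, at 1.13, and was at 0.15 in WT. MT1X was at 1.63 in KO and -0.20 in WT. The metallothionein genes are near-identical copies, so the split of reads among them is uncertain. Of the other lists, 1 of 27 interferon-stimulated genes was higher, OASL at 1.03, which was under 2-fold with the upper quartile set equal, and of 20 enzymes and readers of histone H3 lysine 9 methylation and 12 Wnt targets none was higher or lower. Of 11 epithelial genes CLDN4, a tight junction claudin, was the higher one, at 560 FPKM in refed and 234 in starved KO cells.

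**Figure D4:**
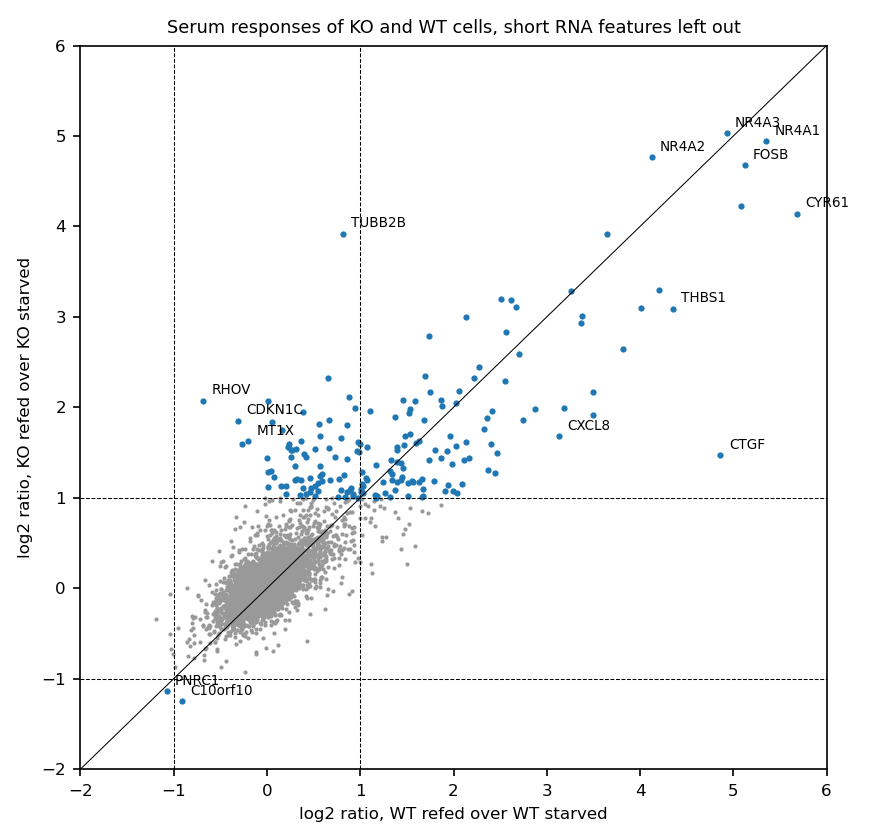
Log2 ratio of (FPKM + 1), refed over starved, in KO cells (vertical axis) against WT cells (horizontal axis), 1 dot per gene without short RNA, blue where 2-fold or more in KO, with the line of equal ratios and dashed lines at 2-fold. The NR4A genes lie near the line, CTGF lies below it (1.47 in KO and 4.86 in WT), and RHOV above it (2.07 in KO and -0.69 in WT).

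The KO and WT responses share no column and were set side by side. Of the 182 genes higher in KO cells, 111 were also higher in WT cells, which is 61.0% of the KO genes and 72.5% of the 153 WT genes. Of the 182, 177 had a WT ratio above 0 and 4 below, and 35 had one under 0.5. The 182 genes had a median of 1.48 in KO and 1.33 in WT cells, whereas the 153 WT genes had a median of 1.28 in KO and 1.58 in WT cells. In each pair the median is larger in the genotype that chose the genes. The 50 early genes among the 182 included 42 that were also higher in WT, and their WT median was 2.07 beside 1.69 in KO. The other 132 included 69 also higher in WT, with a WT median of 1.01 beside 1.41 in KO.

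Among genes at 5 FPKM or more in the highest of the 4 columns, those whose ratio in KO cells lay farthest above that in WT cells were TUBB2B, RHOV, CDKN1C, MT1X, SNAR-G1 and RNF223. TUBB2B, a beta tubulin, had 0.55 FPKM in mock, 0.392 in starved and 20.1 in refed KO cells, against 1.3 FPKM in refed and 0.307 in starved WT cells. Its close copy TUBB2A, with which it can share reads, had 39.0 and 12.2 FPKM in refed and starved KO cells. RHOV, a small GTPase gene, had 25.9 FPKM in refed and 5.39 in starved KO cells, against 5.18 FPKM in refed and 8.94 in starved WT cells. CDKN1C, the CDK inhibitor p57, had 25.5 FPKM in mock, 16.4 in starved and 61.9 in refed KO cells, against 17.2, 6.65 and 5.16 FPKM in mock, starved and refed WT cells. RNF223, a RING finger protein gene, was at 2.33 in KO and 0.65 in WT cells. SNAR-G1, at 1.83 in KO and 0.05 in WT, is a noncoding RNA with near-identical copies.

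On the other side CTGF, CYR61 and CXCL8 had lower ratios in KO than in WT, with differences (KO minus WT) of -3.39, -1.54 and -1.45 on the log2 scale. All 3 encode secreted proteins. CYR61 had 14.7 FPKM in mock, 16.6 in starved and 309 in refed KO cells, against 27.8, 7.66 and 444 FPKM in mock, starved and refed WT cells, of which the mock column holds the endothelial markers. THBS1, a secreted matrix glycoprotein named after its values were seen, had 14.0 FPKM in refed and 0.764 in starved KO cells, against 35.7 and 0.798 FPKM in refed and starved WT cells, at 3.09 in KO and 4.35 in WT. The starved levels of CTGF and THBS1 were low in both genotypes. EEF1A1 is listed at 0 in every column but refed WT, where it is at 3742 FPKM, so its value cannot be read as a response. Without short RNA and read-through genes, none at 5 FPKM or more in the higher column of each genotype passed 2-fold in opposite directions. Features without a gene symbol were also left out of this check, and genes of lower level were not checked.

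**Figure D5:**
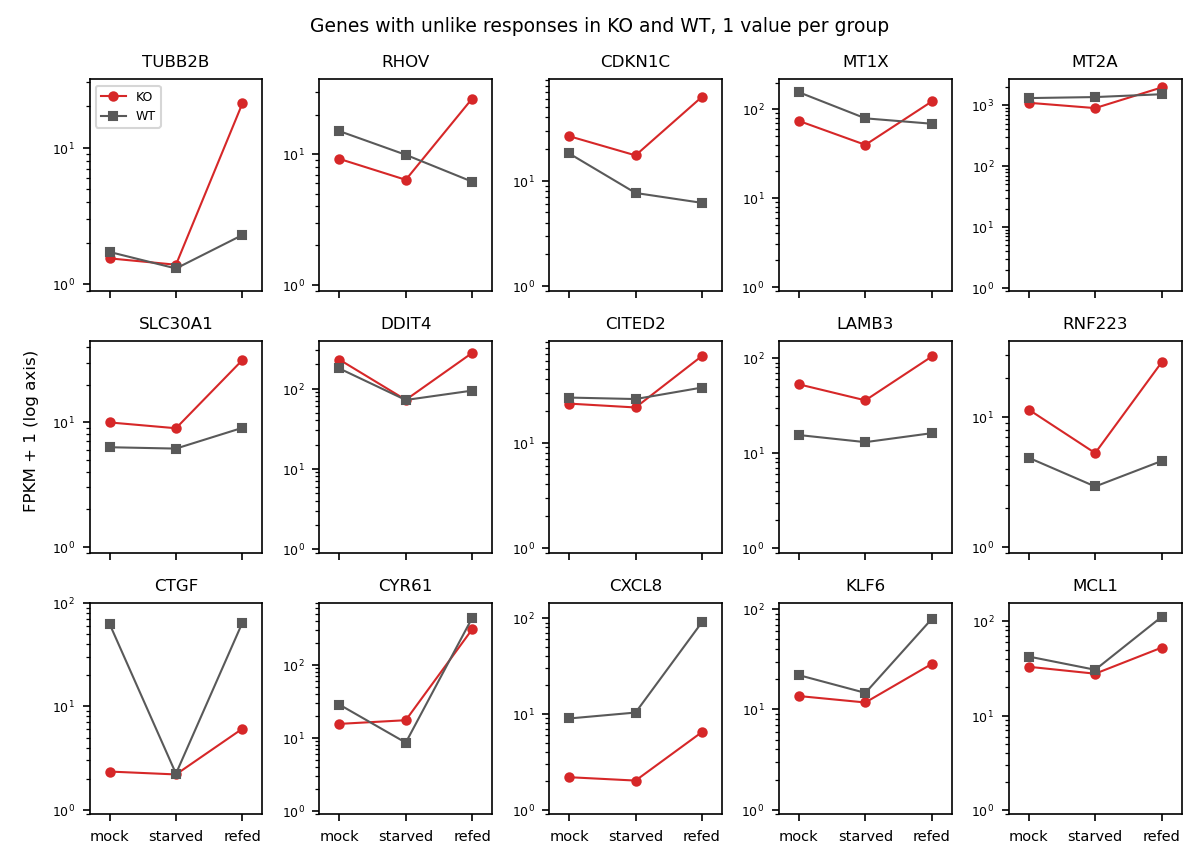
FPKM + 1 on a log axis (vertical) in mock, starved and refed cells (horizontal) for genes with unlike ratios, KO in red circles and WT in grey squares, 1 value per group, some of them chosen after their values were seen. RHOV is higher in refed than in starved KO cells (25.9 and 5.39 FPKM) and lower in refed than in starved WT cells (5.18 and 8.94 FPKM).

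The KO columns were alike in scale. Refed KO cells had 12409 genes at 1 FPKM or more and starved KO cells 12410. Without short RNA, FPKM summed to 593644 in refed and 579234 in starved KO cells. The WT columns differed from these, with sums of 444322 in refed and 459936 in starved WT cells, and with 4301 genes listed at 0 in refed and 4300 in starved WT cells, against 7075 in refed and 7113 in starved KO cells. Levels set side by side between the genotypes therefore rest on columns of unlike scale, while each ratio stays within a genotype. AVPI1, the last of the 12 highest named genes, had 191 FPKM in refed and 20.1 in starved KO cells, at 3.18. Nearest to the 1 FPKM limit, CLIP3 lay just inside, with 1.00067 FPKM in refed and 0.902 in starved KO cells. IGSF9B lay just outside, with 0.999946 FPKM in refed and 0.937 in starved KO cells. With bulk RNA, fewer cells with a transcript and less of it per cell cannot be told apart.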

How the data were processed

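RNA-seq was made from KO and WT HCT116 cells in 3 culture states. Per the labels, the deposited values are FPKM computed by the authors, 1 column per group. FastQC, cutadapt, TopHat2 and build hg19 are named in the submitters' processing notes, without versions. The program that computed FPKM and its annotation are not given in the sources used here. Log2 ratios of FPKM were rounded for the 1772 genes above 0 but under 0.05 FPKM in both KO columns. The 4 most common values held 62 genes (at 0.15), 56 (at -0.09), 51 (at -0.06) and 40 (at 0.12). These counts do not show whether whole reads could be recovered, and depth is unknown.

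FPKM was used as deposited. Log2 ratios of (FPKM + 1) were taken for genes at 1 FPKM or more in either column, and 2-fold was the size threshold. Short RNA features were recognised by symbol prefix (SNOR, SCARNA, MIR with a digit, RNU, RNY, RN7S, VTRNA and similar). The members and the 35 gene lists were chosen with earlier results of these data known. Genes were named by rule: KDM3A and CTGF, the 12 highest and 12 lowest ratios at 5 FPKM or more in the higher column, up to 6 members per list with the largest ratios, the 6 genes each way whose ratios differed most between genotypes at 5 FPKM or more in the highest column, and the nearest to 1 FPKM on each side. Short RNA and read-through genes were left out of the rule, and other names are marked as chosen after their values were seen. Some genes that the rule names are not reported here. Promoters, 250 bases before to 50 after a start, came from RefSeq and matched by symbol for 9807 of 12328 genes. Where a gene had several windows, the one with most motif matches was taken. Alternatives were the pseudocount, the filter, the fold, rescaling and leaving out short RNA. The ratio step was tested on simulated data, and the rescaling steps were not. Calculations used pandas 2.3.3 and numpy 2.4.6 under Python 3.11.15, and plots matplotlib 3.10.9.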

Additional observations from a re-analysis of the deposited data

Results flagged for a closer look

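Of the genes named, 4 differed at least 2-fold between refed and starved KO cells and had a ratio of the opposite sign in WT cells. RHOV was at 2.07 in KO and -0.69 in WT, a difference of 2.76 between log2 ratios. CDKN1C was at 1.85 in KO and -0.31 in WT, a difference of 2.16. MT1X was at 1.63 in KO and -0.20 in WT, a difference of 1.83. The read-through gene TMEM256-PLSCR3, which shares exons with PLSCR3 and was named after its values were seen, was at 1.6 in KO and -0.27 in WT, a difference of 1.87. Each ratio compares 1 refed value with 1 starved value, and the difference was not tested.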

How the results depend on the processing

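With short RNA included, 266 genes were higher and 60 lower in refed KO cells, and 128 of the higher ones were also higher in WT. A pseudocount of 5 gave 146 higher, 23 lower and 68 shared with WT. A fold of 1.5 gave 467 higher and 107 lower, and a fold of 3 gave 126 higher and 33 lower. A filter at 5 FPKM gave 31 lower. Leaving out short RNA gave 182 higher and 2 lower, and also leaving out SNAR and RNVU genes, chosen after seeing the data, gave 178 higher and 2 lower. Setting the upper quartile equal shifted all ratios without short RNA by a median of -0.08 and gave 156 higher and 2 lower, and the single higher member of the ribosome biogenesis, chaperone, cholesterol, TGF-beta and interferon lists no longer passed. A pseudocount of 5 left 0 higher in the ribosome biogenesis, chaperone, cholesterol, interferon and glycolysis lists. The upper quartile setting also turned the small ratios of CARS and EGFL7 below 0. The cause was not tested where the construction does not show it. No paired analysis was possible because each group has 1 column that carries no replicate number, and no replicate could be left out. Depth is unknown, so counting error could not be given, and genes of low level are the least certain.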

Other observations

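Of the 182 genes higher in refed KO cells, 88 belong to the lists described and 94 to none. The genes below were chosen from those 94 after their values were seen. Of the PER clock genes, PER1 and PER2 were higher, PER1 with 36.5 FPKM in refed and 11.2 in starved KO cells and PER2 with 4.26 and 1.46 FPKM in refed and starved KO cells. The vasoconstrictor gene EDN1 had 4.22 FPKM in refed and 0.258 in starved KO cells, at 2.05, and was at 2.02 in WT, and EDN2 was at 1.59 in KO and 0.24 in WT. Kinases that feed MAP kinase and NF-kB signalling were also among them, with MAP3K14 at 1.57, MAP3K8 at 1.24 and MAP2K3 at 1.06 in KO cells. CD55, which protects cells from complement, had 73.0 FPKM in refed and 16.5 in starved KO cells.

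Several genes known from squamous or surface epithelia were also among them, although the epithelial list described had 1 of 11 higher. KRT17 had 10.2 FPKM in refed and 1.58 in starved KO cells, SPRR2D 4.40 and 0.287 FPKM, LAMB3 103 and 35 FPKM and MUC1 21.2 and 7.08 FPKM in refed and starved KO cells. In WT cells KRT17 was at 1.28 FPKM in refed and 0.243 in starved cells, and MUC1 at 8.6 and 6.2 FPKM in refed and starved cells. SPRR2D was at 0.0738 FPKM in refed and 0.0669 in starved WT cells, and LAMB3 at 15.3 and 12.1 FPKM in refed and starved WT cells. KRT80 was at 1.09 in KO and 1.38 in WT. KDM6B, a demethylase of histone H3 lysine 27, was at 1.17 in KO and 1.24 in WT.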
